A study of Mus musculus with 16 samples.

Results

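Matrix metalloproteinases and their tissue inhibitors were followed in macrophages sorted from mouse gliomas, 8 from mice given BLZ945 and 8 from mice given Vehicle. The set holds 10 of the 12394 genes measured: 7 metalloproteinase genes (Mmp2, Mmp8, Mmp9, Mmp12, Mmp13, Mmp14, Mmp19) and 3 inhibitor genes (Timp1, Timp2, Timp3). A gene was taken where a probe set of the array named that symbol alone, and where several did, the one with the highest mean over the 16 arrays stood for the gene. The 10 genes had 22 probe sets in all, and 6 of them had more than 1.

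All mice were of the genotype Nestin-Tv-a;Ink4a/Arf-/- on a mixed background, so every animal lacked Ink4a/Arf and carried the avian virus receptor Tv-a under the Nestin promoter. At 5 to 6 weeks of age their frontal cortex received DF-1 cells that release the retrovirus RCAS-PDGF-B-HA, which infects Nestin-positive cells and starts a PDGF-B-driven glioma. The BLZ945 group was gavaged once per day for 7 days with 200 mg (no body weight is given) of BLZ945, which blocks the kinase of the CSF-1 receptor, and the Vehicle group with 20% captisol. The tumour was cut out, digested with papain, and CD11b-positive, Gr1-negative cells were sorted, 1 array per mouse. The Gr1 gate removes neutrophils and many monocytes.

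The groups differed in ways other than the agent. The BLZ945 group held 5 females and 3 males, and the Vehicle group 4 and 4. In BLZ945, 4 mice were 13.14 and 4 were 11.29 weeks old, and in Vehicle 4 were 11.29, 2 were 11.43 and 2 were 12.29 weeks old. An initial volume of the tumour is labelled without a unit and ran from 41.3 to 132.3 in 8 BLZ945 mice and from 11.9 to 27.3 in the 6 Vehicle mice that have one, so agent and volume cannot be told apart. Mice were enrolled at 4.5 to 40 mm3 on MRI, and all 8 BLZ945 values lie above that range if the unit is the same, so it is unsure what the label measures. The mean of 10 macrophage markers, Csf1r and C1qa the brightest, was 11.59 to 12.03 in BLZ945 mice and 11.69 to 12.14 in Vehicle mice on a log2 scale whose highest values per array were 13.87 to 14.34. The sorting marker Itgam fell by 1.17 in BLZ945 (adjusted p = 0.00807). Of markers of other cells, 4 of 7 measured monocyte-derived macrophage markers fell and 0 rose, with list means of 5.36 to 7.10 in BLZ945 mice and 7.21 to 8.71 in Vehicle mice. Glioma and oligodendrocyte precursor markers fell in 5 of 10 cases and rose in 0, with list means of 4.84 to 6.52 in BLZ945 mice and 6.07 to 7.75 in Vehicle mice. Microglia markers fell in 2 of 5 cases, Tmem119 (-1.64) and P2ry12 (-1.35), and astrocyte markers in 1 of 6 (Gja1), with 0 higher in either list. T and natural killer cell markers went the other way: 0 of 6 passed, all 6 differences were above 0 with a median of 0.52, and the list means were 4.40 to 6.24 in BLZ945 mice and 3.92 to 5.01 in Vehicle mice. Of 8 endothelial markers 0 passed. Of 10 fibroblast and pericyte markers 0 passed, with list means of 5.78 to 7.97 in BLZ945 mice and 6.12 to 8.76 in Vehicle mice.

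Matrix metalloproteinases are zinc proteases that are made as inactive proenzymes and cut collagens, elastin, laminins and many cell surface proteins once a propeptide is removed. Mmp14 sits in the plasma membrane, and the inhibitor made by Timp2 can bridge it to the proenzyme of Mmp2, which is then cleaved. The inhibitors bind the active site and block nearly all members of the family. In gliomas, macrophages and microglia are known as a source of Mmp14 and Mmp9, and the family has been studied for its part in invasion along brain matrix and vessels. Transcript levels say nothing on how much enzyme was active.

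In BLZ945, Timp1, Mmp14 and Mmp2 fell and Timp2 rose, and the other 6 members did not pass. These 4 of 10 members stand beside 7.94% of all genes that passed in either direction. The 3 that fell stand beside 5.34% of all genes, and the 1 that rose beside 2.6%. Those shares of all genes also stand beside the counts given for lists of cell markers. The median difference of the 10 members was -0.25 log2 units, against 0.07 over all 12394 genes. Passing means an adjusted p under 0.05 in limma over all genes, and differences are BLZ945 minus Vehicle in log2 units, where 1 unit is a 2-fold change. In bulk RNA of sorted cells, fewer cells of a type and less RNA per cell cannot be told apart. For 0 of the 10 members were the values of the groups fully apart, which was the case for 1.36% of all genes.

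**Figure D1:**
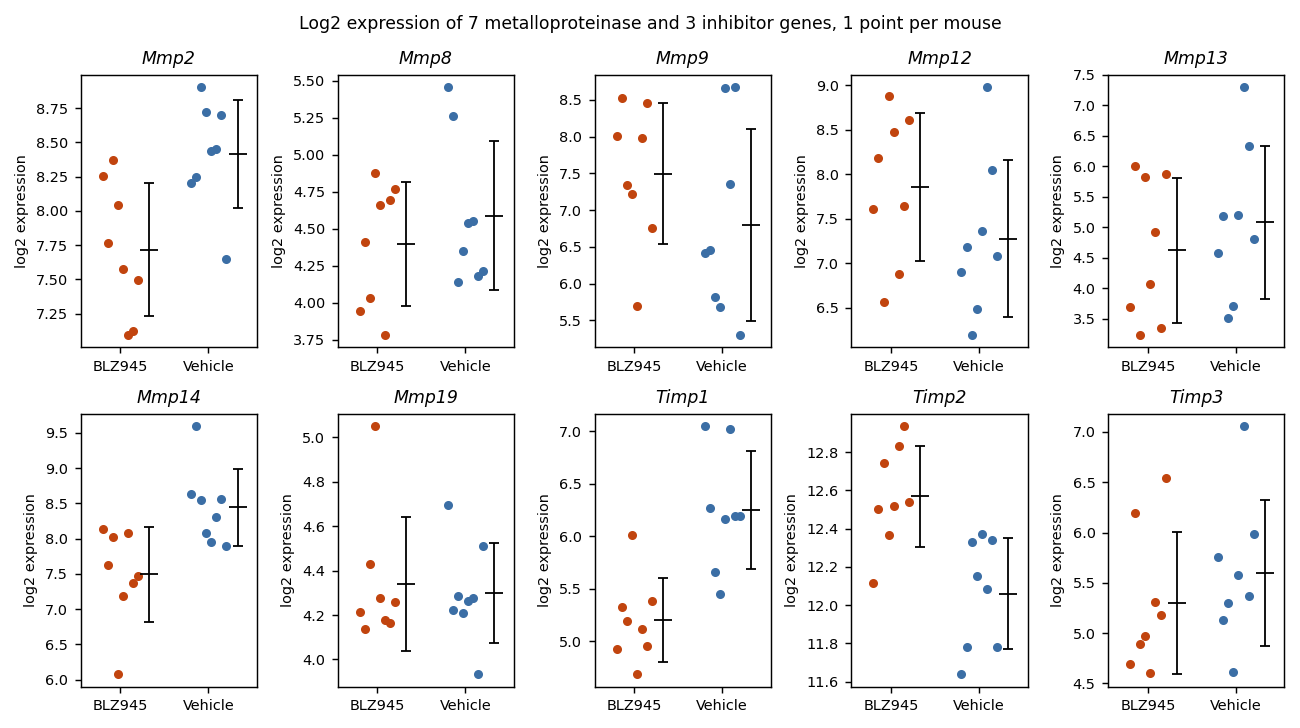
Log2 expression (vertical axis, a scale of its own per gene that does not start at 0) of the 10 genes in each mouse, BLZ945 left and Vehicle right; black marks are the mean ± SD of 8 mice. All 8 BLZ945 mice lie below the Vehicle mean for Timp1, Mmp14 and Mmp2 and above it for Timp2, while the groups overlap in every panel.

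The start regions of the genes the results turn on are shown first, because Timp1, Timp2 and Mmp14 changed and Mmp12 and Mmp13 varied together. RefSeq windows of GRCm38.p6 run from 250 bases before to 50 after a gene's start and were matched for 7 of the 10 members, the others being Mmp2, Mmp9 and Mmp19. They are written 5′ to 3′ on the gene's strand. Capitals mark TGAGTCA or its reverse complement TGACTCA, the classical site of AP-1 (dimers of Fos and Jun proteins), or the related TGAGTAA, whose reverse complement is TTACTCA.
Timp1, chrX:20869916-20870215, plus strand: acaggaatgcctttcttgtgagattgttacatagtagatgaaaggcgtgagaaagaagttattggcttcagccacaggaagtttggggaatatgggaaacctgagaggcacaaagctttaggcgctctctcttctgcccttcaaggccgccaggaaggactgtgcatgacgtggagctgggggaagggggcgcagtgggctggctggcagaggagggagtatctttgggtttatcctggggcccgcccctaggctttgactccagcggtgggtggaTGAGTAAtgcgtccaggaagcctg
Timp2, chr11:118355362-118355661, minus strand: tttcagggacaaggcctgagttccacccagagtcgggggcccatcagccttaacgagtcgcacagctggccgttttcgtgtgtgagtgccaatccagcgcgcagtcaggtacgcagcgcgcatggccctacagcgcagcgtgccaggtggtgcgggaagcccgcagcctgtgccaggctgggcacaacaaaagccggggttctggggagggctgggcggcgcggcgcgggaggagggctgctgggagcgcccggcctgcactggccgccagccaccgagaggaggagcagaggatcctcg
Mmp14, chr14:54431348-54431647, plus strand: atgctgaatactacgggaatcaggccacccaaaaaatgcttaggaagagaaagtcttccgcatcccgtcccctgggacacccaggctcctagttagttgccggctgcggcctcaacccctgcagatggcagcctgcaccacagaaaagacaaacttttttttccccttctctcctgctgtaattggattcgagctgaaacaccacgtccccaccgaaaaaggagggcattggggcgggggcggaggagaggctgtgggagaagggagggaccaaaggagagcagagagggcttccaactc
Mmp13, chr9:7272264-7272563, plus strand: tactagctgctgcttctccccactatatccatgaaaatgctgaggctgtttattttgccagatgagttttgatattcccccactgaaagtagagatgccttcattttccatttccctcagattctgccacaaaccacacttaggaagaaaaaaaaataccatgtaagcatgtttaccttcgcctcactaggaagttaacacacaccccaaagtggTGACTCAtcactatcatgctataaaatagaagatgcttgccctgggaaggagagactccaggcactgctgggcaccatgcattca
Mmp12, the upstream start, chr9:7344147-7344446, plus strand: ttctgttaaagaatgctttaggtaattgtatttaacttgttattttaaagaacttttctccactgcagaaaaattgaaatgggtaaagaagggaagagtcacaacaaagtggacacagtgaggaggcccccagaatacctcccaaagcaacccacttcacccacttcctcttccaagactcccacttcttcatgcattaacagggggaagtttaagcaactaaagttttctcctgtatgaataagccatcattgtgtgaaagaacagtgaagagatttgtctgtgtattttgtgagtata
Mmp12, the downstream start, chr9:7347124-7347423, plus strand: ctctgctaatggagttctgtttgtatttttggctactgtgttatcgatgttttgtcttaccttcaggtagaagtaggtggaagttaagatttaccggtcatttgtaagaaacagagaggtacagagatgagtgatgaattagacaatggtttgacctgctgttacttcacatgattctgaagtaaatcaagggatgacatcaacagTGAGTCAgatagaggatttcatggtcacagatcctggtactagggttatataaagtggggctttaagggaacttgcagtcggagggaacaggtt

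The letters TGACTCA began 35 bases before the start of Mmp13, and TGAGTCA began 44 bases before the downstream start of Mmp12. The 7-letter AP-1 sequence was held by 5.2% of all 32851 windows, searched on both strands. The upstream window of Mmp12 and those of Mmp8, Mmp14, Timp1, Timp2 and Timp3 did not hold these letters. TGAGTAA began 27 bases after the start of Timp1, and 2.68% of windows held it. The letters TATAAA or, on the other strand, TTTATA were in the windows of Mmp13, Mmp8 and the downstream start of Mmp12 and in 13.6% of all windows. The G and C content was 68.7% for Timp2, 67% for Timp3, 56% for Mmp14, 55% for Timp1, 46% for Mmp8, 43.7% for Mmp13, and 38.7% and 40.7% for the upstream and downstream starts of Mmp12. The median of all windows was 52.7%. Mmp12, Mmp13 and Mmp8 thus lay below it, and the inhibitors and Mmp14 above it. These are matches of letters only, and nothing about binding was measured here.

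Among the factors that act on metalloproteinase promoters, 3 of 15 measured genes rose and 0 fell, beside 2.6% and 5.34% of all genes. Jund, a partner of Fos proteins in AP-1, rose by 0.75 (adjusted p = 0.00219). Rela, a subunit of NF-kappaB, rose by 0.48 (adjusted p = 0.00464). Fos itself rose by 0.49 (adjusted p = 0.0463), with 12.90 to 13.28 in BLZ945 mice and 11.69 to 12.98 in Vehicle mice.

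Timp1, the soluble inhibitor that also binds the proenzyme of Mmp9, had the largest difference of the 10 members. Its lowest, median and highest log2 values were 4.69, 5.15 and 6.02 in BLZ945 mice and 5.45, 6.19 and 7.05 in Vehicle mice. In BLZ945, 7 of 8 mice were below every Vehicle mouse, and only BLZ945 4 reached into the Vehicle range, above Vehicle 4 and Vehicle 3. The mean was 5.20 ± 0.40 in BLZ945 and 6.25 ± 0.56 in Vehicle (SD, n = 8 each), a difference of -1.05 (SE 0.22, adjusted p = 0.00669 by limma), which is 2.07-fold lower. Timp1 passed with each of the 16 mice left out in turn, with adjusted p of 0.00268 to 0.0164 and differences of -1.17 to -0.94. It was measured by 1 probe set. Among the 8 mice of 11.29 weeks, the only age that holds both agents, Timp1 was 4.93 to 5.33 in the BLZ945 mice and 5.45 to 7.02 in the Vehicle mice. These ranges did not overlap, which was so for 9.68% of all genes in these mice, and the difference of -1.06 (SE 0.28) did not pass there (adjusted p = 0.13). With the glioma marker mean as covariate the difference was -0.38 (adjusted p = 0.578), and with the monocyte-derived macrophage marker mean, an added alternative, it was -0.69 (adjusted p = 0.553). The monocyte-derived list means did not overlap between the agents (5.36 to 7.10 in BLZ945 and 7.21 to 8.71 in Vehicle mice). That fit thus cannot tell the agent from these markers. Whether glioma or monocyte-derived cells account for the change was not tested.

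Timp2, the inhibitor that also takes part in the activation of Mmp2, moved the other way. Its lowest, median and highest values were 12.11, 12.53 and 12.94 in BLZ945 mice and 11.64, 12.12 and 12.37 in Vehicle mice. In BLZ945, 6 of 8 mice were above every Vehicle mouse, and 4 Vehicle mice were below every BLZ945 mouse. Timp2 averaged 12.57 ± 0.26 in BLZ945 and 12.06 ± 0.29 in Vehicle (SD, n = 8 each), 0.51 higher (SE 0.14, adjusted p = 0.0307 by limma) or 1.42-fold. Its spread between mice of 1 agent, 0.28, was narrower than that of most genes, whose median was 0.31. The other 5 probe sets of Timp2 differed by 0.09 to 0.44, all upward, and 0 of them passed (adjusted p 0.136 to 0.677), where 6.81% of all 20393 probe sets with 1 symbol passed. Those 5 tracked the brightest one unevenly within an agent, with r from -0.33 to 0.70 over 16 mice. The call of Timp2 ended without BLZ945 3 or 7 or without Vehicle 1, 2, 6 or 8, each on its own (adjusted p 0.0504 to 0.068). With the initial tumour volume as covariate, in the 14 mice that have one, its sign turned (-0.11, SE 0.29, adjusted p = 0.806). Volumes did not overlap between the agents, so that fit cannot tell the agent from the volume. Among mice of 11.29 weeks the Timp2 difference was 0.31 (adjusted p = 0.433). The glioma and the monocyte-derived marker mean as covariate gave 0.31 and 0.29 (adjusted p = 0.562 and 0.774). The monocyte-derived mean did not overlap between the agents, so its fit cannot tell the agent from the markers.

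Timp3, which stays bound to the matrix, did not pass. It had 4.60, 5.07 and 6.54 as lowest, median and highest value in BLZ945 mice and 4.61, 5.47 and 7.06 in Vehicle mice. The ranges nearly coincided, and the difference was -0.30 (SE 0.32, 95% interval -0.97 to 0.37, adjusted p = 0.581). Its other 3 probe sets differed by -0.11 to 0.13.

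**Figure D2:**
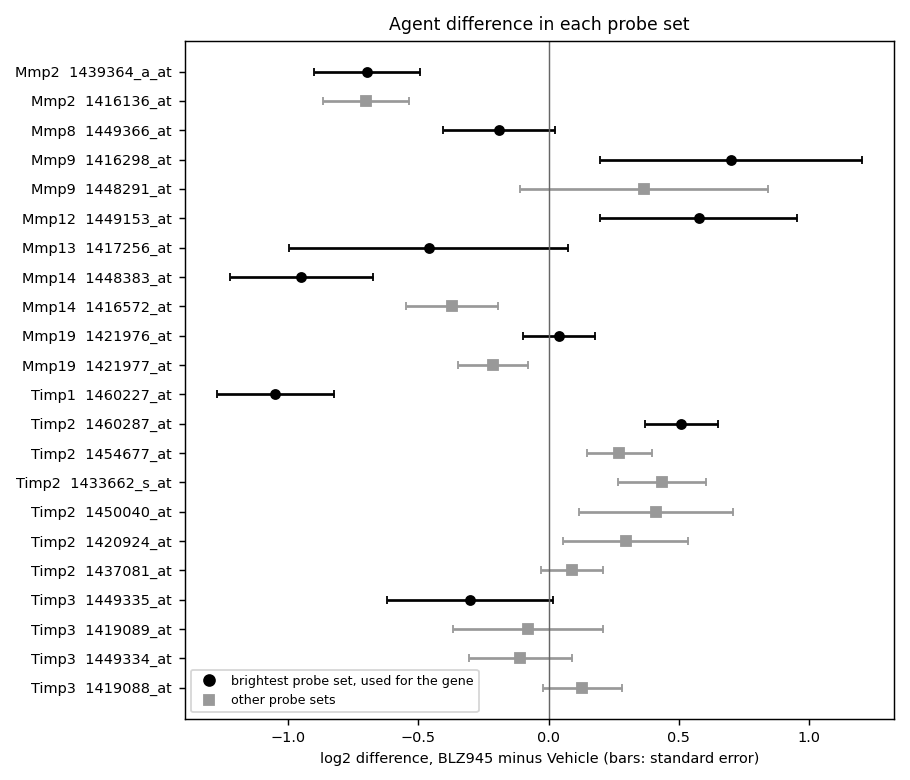
Difference in log2 expression, BLZ945 minus Vehicle (horizontal axis), for each of the 22 probe sets, with bars of 1 standard error. Circles are the probe set used for a gene and squares the others; all 6 of Timp2 lie above 0, both of Mmp2 near -0.70, and both of Mmp14 below 0 at -0.95 and -0.37.

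Mmp14, the membrane-bound collagenase and activator of the Mmp2 proenzyme, was lower in BLZ945. Its lowest, median and highest values were 6.08, 7.55 and 8.14 in BLZ945 mice and 7.89, 8.42 and 9.59 in Vehicle mice. In BLZ945, 5 of 8 mice were below every Vehicle mouse, the lowest being BLZ945 4, while Vehicle 2 stood above the other Vehicle mice. Mmp14 averaged 7.50 ± 0.67 in BLZ945 and 8.45 ± 0.54 in Vehicle (SD, n = 8 each), a difference of -0.95 (SE 0.28, adjusted p = 0.0394 by limma), which is 1.93-fold. The dimmer probe set differed by -0.37 (SE 0.18, adjusted p = 0.228) and followed the brighter with r = 0.44 within agents. The call ended without BLZ945 2, 4, 5, 7 or 8 or without Vehicle 1, 2, 3, 6 or 7, each on its own (adjusted p 0.0534 to 0.075).

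Within BLZ945, Mmp14 stood apart by age. It was 7.03 ± 0.64 at 13.14 weeks and 7.97 ± 0.23 at 11.29 weeks (SD, n = 4 each), and the 4 older mice were all below the 4 younger ones. The cohorts were likewise fully apart, in either direction, for 9.03% of all genes. The Mmp14 difference of -0.94 (SE 0.29) did not pass in limma (adjusted p = 0.184), beside 0.0403% of all genes that did. Among mice of 11.29 weeks Mmp14 averaged 7.97 ± 0.23 in BLZ945 and 8.23 ± 0.26 in Vehicle (SD, n = 4 each), a difference of -0.26 (SE 0.18, adjusted p = 0.51 by limma). At the 2 ages held by Vehicle alone it was 8.22 at 11.43 weeks and 9.12 at 12.29 weeks, on average of 2 mice each. Monocyte-derived macrophage markers varied alongside. Within BLZ945 their list mean and Mmp14 gave Pearson r = 0.74 and Spearman rho = 0.95 (n = 8, exact permutation p = 0.0345 and 0.00114). Without the 2 mice farthest from the median r was 0.84, and adjusted over the 180 relations of members with marker lists the values were 0.401 and 0.205. The list mean in BLZ945 was also fully apart by age, 5.36 to 6.46 in the 4 older mice and 6.57 to 7.10 in the 4 younger. Over these 8 mice the relation thus cannot be told apart from the split by age. In Vehicle the same relation had r = 0.63 and rho = 0.52 (n = 8, exact permutation p = 0.0802 and 0.197, adjusted 0.472 and 0.61), and r was 0.58 without the 2 farthest mice. The highest r of Mmp14 in Vehicle was with T and natural killer cell markers, r = 0.86 and rho = 0.52 (n = 8, exact permutation p = 0.0268 and 0.197, adjusted 0.401 and 0.61), and r was 0.47 without the 2 farthest mice. With the monocyte-derived macrophage marker mean as covariate, the agent difference of Mmp14 was 0.13 (SE 0.36, adjusted p = 0.974 by limma). The monocyte-derived list means did not overlap between the agents, so this fit cannot tell the agent from the markers. The part of monocyte-derived, T and natural killer cells in the change of Mmp14 was not tested.

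Mmp2, the gelatinase of basement membranes, was also lower. Its lowest, median and highest values were 7.09, 7.67 and 8.37 in BLZ945 mice and 7.65, 8.44 and 8.90 in Vehicle mice. All 8 BLZ945 mice were below the Vehicle mean and 4 were below every Vehicle mouse, with Vehicle 8 the lowest of its group. Mmp2 averaged 7.72 ± 0.48 in BLZ945 and 8.41 ± 0.39 in Vehicle (SD, n = 8 each), a difference of -0.70 (SE 0.20, adjusted p = 0.0416 by limma) or 1.62-fold. Its second probe set gave -0.70 (SE 0.16, adjusted p = 0.0133) and followed the first with r = 0.94 within agents. Among mice of 11.29 weeks the difference was again -0.70 (SE 0.26, adjusted p = 0.256), with the 4 BLZ945 mice at 7.09 to 8.37 and the 4 Vehicle mice at 8.44 to 8.72. These ranges did not overlap, which was so for 9.68% of all genes in these mice. The call ended without BLZ945 2, 5, 6, 7 or 8 or without Vehicle 1, 3, 4, 5, 6 or 7, each on its own (adjusted p 0.0524 to 0.09). It also ended with the fibroblast and pericyte marker mean as covariate (-0.65, adjusted p = 0.0748) and with the neutrophil marker mean (-0.70, adjusted p = 0.0518). The same held for the glioma marker mean (-0.52, adjusted p = 0.499), repeated quantile normalization (-0.64, adjusted p = 0.0537) and the array SD (-0.67, adjusted p = 0.0548). The monocyte-derived mean gave -0.85 and the volume -0.30 (adjusted p = 0.352 and 0.692). Both did not overlap between the agents, so these fits cannot tell the agent from them. In females Mmp2 was 7.95 ± 0.40 in BLZ945 (n = 5) and 8.30 ± 0.52 in Vehicle (n = 4), and in males 7.33 ± 0.38 in BLZ945 (n = 3) and 8.53 ± 0.23 in Vehicle (n = 4, SD throughout). The interaction of agent and sex, 0.85 (SE 0.38), did not pass in limma (adjusted p = 0.983).

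**Figure D3:**
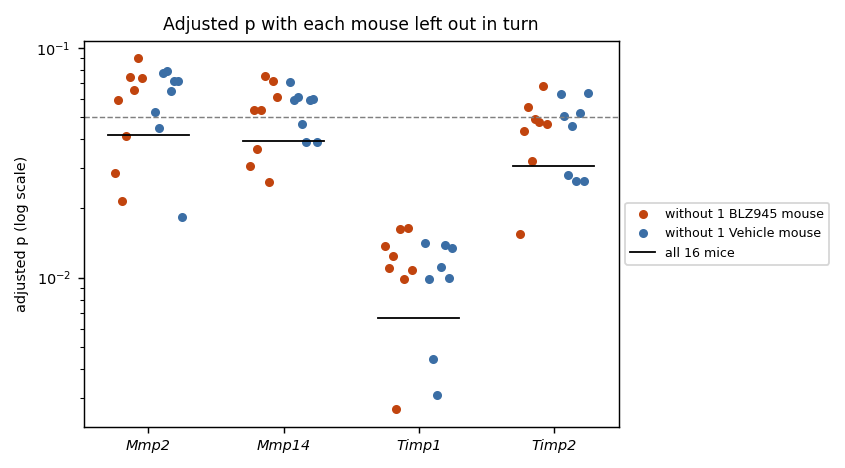
Adjusted p on a log scale (vertical axis) of the 4 members that passed, refitted with each of the 16 mice left out in turn; black lines are the value with all mice and the dashed line is 0.05. Timp1 stays between 0.00268 and 0.0164, and the other 3 genes cross the line.

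Mmp9, the second gelatinase, did not pass and was among the most variable genes between mice of 1 agent. Its lowest, median and highest values were 5.69, 7.66 and 8.52 in BLZ945 mice and 5.30, 6.44 and 8.68 in Vehicle mice. Both groups thus spanned low and high mice, with Vehicle 5 and 7 the highest of all 16. The difference was 0.70 (SE 0.50, 95% interval -0.35 to 1.75, adjusted p = 0.413), and its other probe set gave 0.37 and tracked the first with r = 0.93. The spread within an agent, 1.15, exceeded that of 99.2% of genes. In BLZ945 it was 7.00 ± 0.86 in females (n = 5) and 8.32 ± 0.30 in males (n = 3), and in Vehicle 6.22 ± 0.88 in females and 7.37 ± 1.53 in males (SD, n = 4 each). The sex difference of -1.23 (SE 0.43, female minus male) did not pass in limma (adjusted p = 0.484). Of 9 neutrophil markers, cells known for storing this enzyme, 1 rose (Csf3r, the receptor for G-CSF) and 0 fell, and the list mean was 5.38 to 6.11 in BLZ945 mice and 4.94 to 6.30 in Vehicle mice.

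Mmp8, the neutrophil collagenase, had 3.78, 4.53 and 4.88 as lowest, median and highest value in BLZ945 mice and 4.14, 4.45 and 5.46 in Vehicle mice. The groups overlapped, and the difference was -0.19 (SE 0.21, 95% interval -0.64 to 0.26, adjusted p = 0.604). Within BLZ945 the age cohorts stood apart, at 4.75 ± 0.10 for 13.14 weeks and 4.04 ± 0.26 for 11.29 weeks (SD, n = 4 each). This 0.71 (SE 0.17) did not pass in limma (adjusted p = 0.148). Mmp8 was dim: its means of 4.40 in BLZ945 and 4.59 in Vehicle lay near 4.37, the lower quartile of gene means. The mean of the younger BLZ945 mice lay below that quartile. In Vehicle the 2 mice of 12.29 weeks, at 5.26 and 5.46, were above the other 6. Mmp8 and Mmp14 were the 2 of 10 members whose BLZ945 cohorts were fully apart, beside 9.03% of all genes.

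Mmp12, the macrophage elastase, had 6.57, 7.91 and 8.87 as lowest, median and highest value in BLZ945 mice and 6.20, 7.13 and 8.98 in Vehicle mice. The ranges nearly coincided and the difference of 0.58 (SE 0.38, 95% interval -0.22 to 1.37) did not pass (adjusted p = 0.374). Among mice of 11.29 weeks it was -0.41, so its sign was not the same there. In BLZ945 the cohort of 13.14 weeks averaged 8.40 ± 0.53 and that of 11.29 weeks 7.31 ± 0.73 (SD, n = 4 each, adjusted p = 0.195 by limma).

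**Figure D4:**
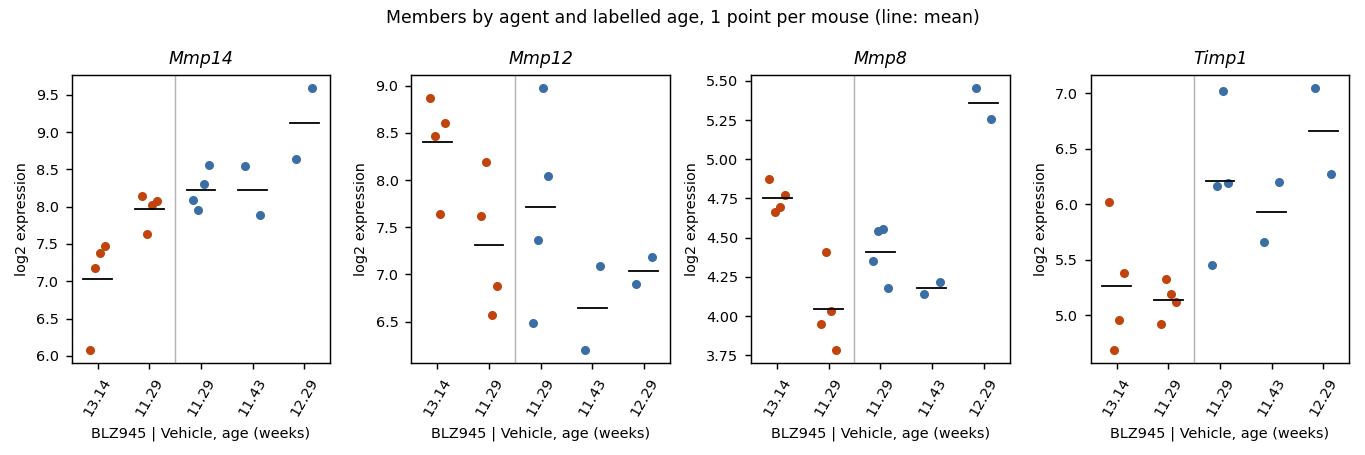
Log2 expression (vertical axes, not starting at 0) of Mmp14, Mmp12, Mmp8 and Timp1 in each mouse by agent and labelled age in weeks; lines are means. Within BLZ945 the older mice are lower for Mmp14 and higher for Mmp8 with no overlap, a separation found for 9.03% of all genes. For Timp1 the older and younger means, 5.26 and 5.14, lie together below the Vehicle means.

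Mmp13, an interstitial collagenase, had 3.23, 4.49 and 6.01 as lowest, median and highest value in BLZ945 mice and 3.52, 4.99 and 7.30 in Vehicle mice. The difference was -0.46 (SE 0.54, 95% interval -1.58 to 0.66, adjusted p = 0.616). Its spread within an agent, 1.22, exceeded that of 99.4% of genes, and that of Mmp12, 0.86, exceeded 97.9%. Mmp19, a soluble member with a broad tissue range, was the flattest: 4.14, 4.24 and 5.05 in BLZ945 mice and 3.93, 4.27 and 4.69 in Vehicle mice. Its difference was 0.04 (SE 0.14, 95% interval -0.25 to 0.33, adjusted p = 0.877), its second probe set gave -0.21, and its sign turned with repeated quantile normalization (-0.036) and with array weights (-0.020). It was the 1 member whose mean was below the lower quartile of gene means, 4.37, and RMA compresses differences of dim genes.

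Mmp12 and Mmp13 varied together from mouse to mouse in Vehicle. They are neighbours in a cluster of metalloproteinase genes on chromosome 9, where the protein-coding genes from Mmp13 to Mmp8 lie in the order Mmp13, Mmp12, Mmp1b, Mmp3, Mmp1a, Mmp10 and Mmp8. In Vehicle 3, 4, 1, 8, 2, 5, 7 and 6, Mmp12 was 6.20, 6.49, 6.90, 7.08, 7.18, 7.36, 8.04 and 8.98, and Mmp13 was 3.52, 3.71, 4.58, 4.80, 5.18, 5.20, 6.33 and 7.30. The order of the 8 Vehicle mice was the same for both genes. Pearson r was 0.992 and Spearman rho 1 (n = 8, exact permutation p = 2.48e-05 and 4.96e-05, the smallest that 40320 pairings can give for r and for a two-sided rho), and r was 0.990 without the 2 mice farthest from the median of Mmp12. Adjusted over 90 relations, 45 pairs in each agent, these were 0.00223 and 0.00446, and this was the 1 relation that passed. In BLZ945 r was 0.62 and rho 0.64 (n = 8, exact permutation p = 0.105 and 0.0962, adjusted over the same 90 relations above 0.05). In those mice BLZ945 5 and 7 had low Mmp13 for their Mmp12, and BLZ945 6 the reverse. The difference in r between the agents, -0.37, had an exact two-sided permutation p of 0.133 over 12870 labellings of agent-centred values, a test added after the data were seen.

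**Figure D5:**
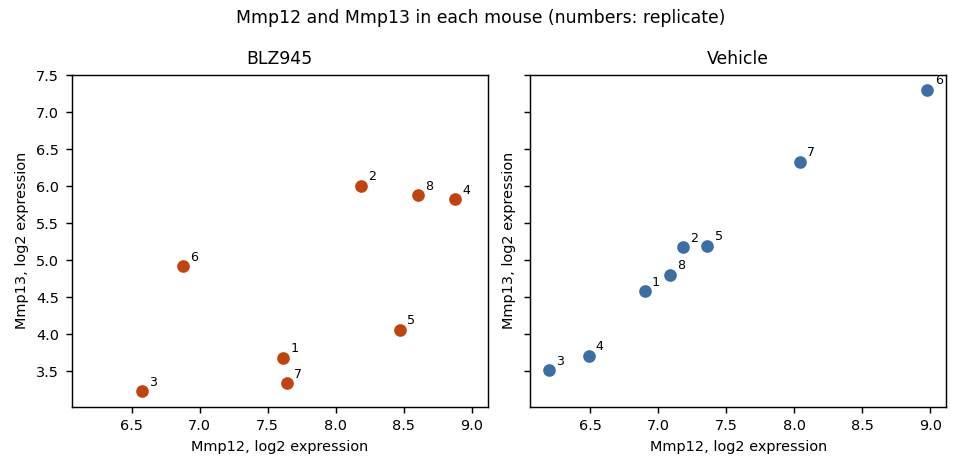
Mmp12 (horizontal axis) against Mmp13 (vertical axis), both log2 expression, in the 8 BLZ945 mice (left) and the 8 Vehicle mice (right), numbered by replicate. The Vehicle mice lie near a single line from 3 to 6, r = 0.992, and the BLZ945 mice are scattered, r = 0.62.

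The other 5 genes of that stretch were compared with Mmp12 as an added step, 10 relations over both agents, of which 0 passed. In Vehicle, Mmp3, the stromelysin, gave r = 0.85 and rho = 0.71 (n = 8, exact permutation p = 0.0125 and 0.0576, adjusted over 10 relations 0.0624 and 0.288), and r was 0.32 without the 2 mice farthest from the median, so the relation rests on those mice. Mmp10, also a stromelysin, gave r = 0.82 and rho = 0.48 in Vehicle (exact permutation p = 0.0204 and 0.243, adjusted 0.068 and 0.405), and r was -0.27 without those 2 mice. In Vehicle 6, the mouse with the highest Mmp12 and Mmp13, the fibroblast and pericyte marker mean was 8.76 and the endothelial marker mean 5.89, both the highest of the 16 mice. Over the 8 Vehicle mice, Mmp12 and Mmp13 had r = 0.87 and 0.88 with the endothelial mean (exact permutation, both adjusted p = 0.342). Without the 2 mice farthest from each gene's median these were 0.71 and 0.79. With the macrophage mean r was -0.72 and -0.79 (both adjusted p = 0.401). In BLZ945 the endothelial mean gave 0.06 and 0.28, and the macrophage mean 0.18 and -0.36. The part of other cells was not tested. Mmp8 had r = -0.01 and rho = 0.24 with Mmp12 in Vehicle (exact permutation p = 0.984 and 0.582, adjusted 0.984 and 0.665) and r = 0.84 and rho = 0.86 in BLZ945 (exact permutation p = 0.0124 and 0.0107, adjusted 0.0624 and 0.107), where r was 0.70 without the 2 farthest mice. Over the 90 relations among members the adjusted values of that pair were 0.373 and 0.321. In BLZ945 both genes averaged higher in the cohort of 13.14 weeks. Over the 180 relations of members with marker lists, 0 passed the adjustment, and 19 had an unadjusted permutation p under 0.05.

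Other fits called 0 of the 10 members. Within BLZ945, the slope on log2 volume was largest for Timp3, 0.98 per doubling (SE 0.27, adjusted p = 0.653 by limma). Of all genes, 0.0323% passed for sex, 0% for the interaction of agent and sex, 0.0403% for age and 0% for volume. At an unadjusted p under 0.05 there were 2, 2, 3 and 1 members in these fits.

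For the 4 members that passed, the genes whose values followed them most closely from mouse to mouse were found by Pearson r of agent-centred values over 16 mice. For Timp1 these were Notch4 (0.83), Serpinh1 (0.82), a collagen chaperone, and Col1a1 (0.80), a chain of type I collagen. For Mmp2 they were Clip1 (0.90), Pbxip1 (0.88) and Pck2 (0.86). For Mmp14 they were Trim34a (0.84), Rest (0.83) and Arhgef2 (0.83). For Timp2 they were Retreg3 (0.87), Zfp346 (0.86) and Fbxo4 (0.85). Genes named here were picked for the highest r among the genes measured, and no p-value or background was computed. Picking the highest of many values yields high r even among unrelated genes. Whether any of these relations exceeds that was not tested.

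Among the other metalloproteinase and inhibitor genes, 12 of 17 listed were measured. Of these, 1 fell and 0 rose, beside 5.34% and 2.6% of all genes. The gene that fell was Mmp16, a membrane-type enzyme, at 4.06 ± 0.19 in BLZ945 and 4.69 ± 0.53 in Vehicle (SD, n = 8 each), a difference of -0.63 (adjusted p = 0.0436 by limma). Its BLZ945 mean lay below 4.37, the lower quartile of gene means. The median difference of the 12 was 0.06, close to the 0.07 of all genes. Mmp10, named after its values were seen, was 5.77 ± 0.97 in BLZ945 and 6.99 ± 0.99 in Vehicle (SD, n = 8 each), -1.22 with adjusted p = 0.0948 by limma.

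Of 13 measured ADAM and ADAMTS proteases, relatives with a metalloproteinase domain, 2 fell and 0 rose, beside 5.34% and 2.6% of all genes. Adam10, the main constitutive sheddase, was 10.60 ± 0.27 in BLZ945 and 11.15 ± 0.23 in Vehicle (SD, n = 8 each), -0.55 with adjusted p = 0.0121 by limma. Adam12 was 4.46 ± 0.43 in BLZ945 and 5.35 ± 0.63 in Vehicle (SD, n = 8 each), -0.89 with adjusted p = 0.0312 by limma. Of 15 activators, anchors and binding partners, 1 rose and 1 fell, beside 2.6% and 5.34% of all genes. Plaur, the receptor that holds urokinase at the cell surface, rose by 0.65 (adjusted p = 0.0156). A2m, a plasma inhibitor that traps proteases, differed by -0.90 (adjusted p = 0.0281).

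Of 20 matrix substrates, 1 fell and 0 rose, beside 5.34% and 2.6% of all genes. Their median difference was -0.74, against 0.07 over all 12394 genes. Tnc, the glycoprotein tenascin C of glioma matrix, was 5.17 ± 0.44 in BLZ945 and 6.53 ± 1.16 in Vehicle (SD, n = 8 each), -1.35 with adjusted p = 0.0368 by limma. The difference was below 0 for 17 of the 20, most of them without passing, and for 4818 of all 12394 genes. The fibroblast and pericyte markers share Col1a1, Col1a2, Col3a1, Dcn and Lum with this list, and 8 of those 10 markers were lower without passing.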

How the data were processed

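Expression of sorted glioma macrophages was measured on Affymetrix 3' arrays from 75 ng of RNA per mouse, per the labels' protocols. The deposited log2 values, 1 per probe set and array, were used as given. The authors' processing used GCOS 1.4 and RMA, per the submitters' processing notes, with the role of each, the annotation and a genome build not given in the sources used here. The RMA method corrects background, normalizes across arrays and compresses differences of dim probe sets, so small differences of dim genes are understated. Depth has no equivalent on arrays, and their number, 8 per agent, limits the precision.

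Of 22690 probe sets, 20393 had 1 symbol, 691 several and 1606 none in the platform annotation, and 20364 of the single-symbol ones were found by identifier in the RefSeq table of GRCm38.p6, with 0 symbols altered. Per gene the probe set with the highest mean was kept, 12394 in all. Limma 3.58.1 in R 4.3.3 (lmFit, eBayes, no covariate) compared 8 BLZ945 with 8 Vehicle mice, and p-values were adjusted by Benjamini-Hochberg over all genes. Other probe sets were tested over the 20393. Further fits covered sex, its interaction with agent, age and tumour volume within BLZ945. The members and lists were chosen with earlier results of these data known. Named beside the members were up to 4 passing genes per list (else the 2 with the smallest p), the 3 closest genes per passing member, and the brightest markers of lists a result touches.

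On simulated data with these genes' means and spreads, this comparison over 12394 genes found 31.3% of the genes shifted by 0.5 log2 units. It found 85.1% at a shift of 1 and 98.5% at a shift of 2. The shifted genes, 67, 67 and 66 for these sizes, were drawn at random from all genes. Recovery was not computed for genes as variable as Mmp13, whose spread within an agent was 1.22 beside a median of 0.31. The labels number the mice 1 to 8 in both agents without saying that numbers pair them. For that reason they were not taken as pairs. Same-numbered mice correlated between -0.48 and 0.39 in their deviations from the agent mean.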

Additional observations from a re-analysis of the deposited data

Results flagged for a closer look

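Within an agent, 3 of 20 sets of 8 values held a mouse whose gap to its nearest neighbour was over 0.526 of the range, a limit that chance passes in about 1 of 20 sets. Mmp14 was 6.08 in BLZ945 4, with a gap of 0.536 of the range, and without that mouse the call of Mmp14 ended. Mmp14 was 9.59 in Vehicle 2, with a gap of 0.56, and without that mouse the call also ended. Mmp19 was 5.05 in BLZ945 4, with a gap of 0.681.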

How the results depend on the processing

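The comparison of BLZ945 with Vehicle called 984 genes, with 1 member higher and 3 lower. With the probe set of the largest SD 0 members were higher, Mmp19 was -0.21, and for sex, interaction, age and volume Mmp19 was -0.024, -0.095, -0.10 and 0.021 and Timp2 0.46 (sex), 0.68 (interaction) and -0.41 (volume). With the mean of all probe sets 0 members were higher and Mmp19 was -0.087. Single other probe sets gave -0.21 for Mmp19 and 0.13 for Timp3. Repeated quantile normalization left 1 member lower, with Mmp19 at -0.036, its interaction at -0.053, Timp3 by age at -0.010 and Mmp9 by volume at -0.022. Array weights gave -0.020 for Mmp19. With age cohort as covariate 215 genes and 0 members in either direction were called and Mmp12 was -0.41. The 11.29-week mice alone gave 89 genes, 0 members and Mmp12 at -0.41. Only that age holds both agents, so these 2 settings give the same differences by construction. The volume covariate gave 15 genes, 0 members, and -1.64, -0.88 and -0.11 for Mmp9, Mmp12 and Timp2. Volumes did not overlap between the agents, so that fit cannot tell the agent from the volume. The array SD covariate gave 1644 genes, 1 member lower and Mmp19 at -0.070. The fibroblast covariate gave 2 members lower, as Mmp2 lost its call, with 0.014 for Mmp13 and 0.011 for Timp3. The glioma covariate gave 181 genes, 0 members, and 0.20, 0.76 and 0.51 for Mmp8, Mmp13 and Timp3. Females alone gave 393 genes and 0 members, males alone 2 genes, 0 members and Timp3 at 0.39. Chosen after seeing the data, the monocyte-derived covariate gave 56 genes, 0 members, Mmp14 at 0.13 and Mmp19 at -0.070. Its list means did not overlap between the agents, so agent and markers cannot be told apart in that fit. The neutrophil covariate, also chosen after seeing the data, gave 926 genes, 1 member higher and 2 lower, again without Mmp2. Without BLZ945 mice of 13.14 weeks there were 247 genes, 0 members higher, 1 lower (Timp1) and Mmp19 at -0.060, and without Vehicle mice of 12.29 weeks 0 higher, 1 lower (Timp1) and Mmp8 at 0.066. The causes were not tested, though smaller sets of mice have fewer samples by construction. Leaving out 1 mouse at a time gave 710 to 1188 genes, 0 to 1 members higher and 1 to 3 lower, and Mmp19 at -0.062 to 0.096. The replicate number as a block gave 873 genes, 1 member higher and 3 lower. The numbers are not taken as pairs, since the labels do not say that they pair the mice. Among same-numbered mice 5 of 8 pairs correlated over 0.1, and 2 of 8 BLZ945 mice correlated best with their own number. Over all alternatives for single genes and pairs, 402 values kept their direction and, where an adjusted p was computed, their side of the threshold. Of the others, 73 lost the call, 34 changed sign and 3 moved otherwise. For pairs of members without the 2 farthest mice only r was compared, and no adjusted p was computed. The 402 include values that had not passed and so had no call to lose. Of the members that passed, Timp1 passed in 29 of 36 alternatives, Timp2 in 19 of 41, Mmp14 in 15 of 37 and Mmp2 in 13 of 37. Counts of calls stayed within 1.5 times in 87 cases, which includes 2 members lower in place of 3, and moved further in 45. The precision is limited by 8 arrays per agent. The limma p-values of the main comparison set each difference against the spread between these mice. They do not account for the differences of the groups in age and volume.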
